A study of Mus musculus with 18 samples.

Results

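Control LSK cells that had been grown for 6 days with DL1 were compared with control LSK cells taken straight from bone marrow. LSK cells are the Lineage-negative, cKit+, Sca1+ fraction of mouse bone marrow, which holds the hematopoietic stem cells and the multipotent progenitors. The comparison uses 6 of the 18 libraries of the series, 3 from DL1 cultures and 3 from fresh cells, chosen by their titles and conditions and not by any measured value. All mice were C57Bl/6, and their age and sex are not given in the sources used here. Each fresh library came from LSK cells pooled from 3 mice. Each cultured library came from 200 LSK cells of 1 mouse that were kept with mSCF (stem cell factor), hFlt3L (Flt3 ligand), hIL-11 and hIL-6, and that were sorted again as LSK cells before RNA was taken. The control cultures without DL1 had the same medium, and the irradiated groups came from mice given 2.5 Gy with at least 9 weeks of recovery. The labels neither spell out DL1, read here as the Notch ligand Delta-like 1, nor say how it was offered to the cells. One label field of the controls (their source) mentions irradiation, against their titles and conditions, which were followed.

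Fresh and cultured cells differ in more than DL1. They differ in time outside the marrow, in cytokines, in the number of mice behind a library and in the table in which the authors scaled them, and these cannot be told apart here. The culture without DL1 is therefore given beside the results, since it shares all of these with the DL1 culture except the ligand.

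Stem and progenitor cells in the marrow are held largely out of cycle by their niche, make much of their energy by glycolysis and depend on signals such as stem cell factor. In culture with stem cell factor, Flt3 ligand and cytokines that act through gp130 they divide and differentiate. Notch receptors are cut by gamma-secretase when a Delta or Jagged ligand on another surface binds them, and the freed part joins RBPJ and Mastermind proteins to switch on genes such as Hes1, Nrarp, Dtx1 and Tcf7. In blood formation this pathway is best known for directing progenitors to the T lineage, while C/EBPα, which the title of the series sets against Notch, drives the myeloid lineages.

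Levels are FPKM after median-ratio scaling to a common reference, as mean ± SD over 3 libraries, with single libraries in the order of replicates 1, 2 and 3. A difference is the mean of log2(scaled FPKM + 1) in culture minus that in fresh cells, ± its standard error. No p is given across the tables. A gene is called higher or lower where the 3 cultured and the 3 fresh libraries did not overlap and the difference was at least 1, which is 2-fold on that scale. FPKM carry no read counts, and a listed 0 may be an estimate that failed. Hmgcs1, an enzyme of sterol synthesis that dividing cells use, was listed at 0 in all 18 libraries, so that a listed 0 is not read as absence. Lists are counted over their compared members, and a member can pass the filter through the group in which it is high alone. Nothing in the labels says whether the fresh pools or the cultures of a group were prepared on separate days, so the spread between libraries may be partly technical.

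Libraries of a group correlated with r between 0.988 and 0.998 across genes, and fresh with DL1 libraries with r between 0.800 and 0.816. Rows named like ribosomal or small RNAs were dropped, with a few others taken to hold ribosomal RNA sequence, Lars2 among them. The dropped rows held 34.3 to 35.0% of FPKM in fresh and 1.75 to 2.15% in DL1 libraries. All 57 compared genes of the replication-dependent histones, whose messages lack a poly(A) tail, were lower in DL1 culture, with a summed level of 3952 to 4745 FPKM in fresh and 137 to 157 in DL1 libraries. This set was chosen after its values were seen. The nuclear RNA row RN7SK, also without a tail, had 789.9, 640.5 and 540.7 FPKM in fresh libraries and 3.34, 3.23 and 4.54 in DL1 libraries. Among the fifth of genes with the highest GC content 26.2% were called higher and 11.3% lower, against 6.88% and 19.2% in the fifth with the lowest. Of the fifth with the longest transcripts, 7.19% were called higher and 23.2% lower. The part of these properties in the results below was not tested.

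Of 12681 genes compared, 1881 were higher in DL1 culture (14.8%) and 2257 were lower (17.8%). The groups did not overlap for 10815 genes (85.3%), so the size of a difference says more than the lack of overlap. The median difference over all genes was -0.00396, with quartiles at -0.72 and 0.65. The SD between libraries, taken for each gene from the group where it was larger, had a median of 0.125 on the log2 scale. In irradiated cells, where DL1 culture and fresh cells share no library with the controls, 1853 of 12702 genes were higher (14.6%) and 2217 lower (17.5%) and 82.9% had no overlap of groups. Of the genes called higher in controls 1636 were also called higher in irradiated cells, which is 87.0% of the controls' list and 88.3% of the irradiated list. For genes called lower, 1970 were shared, 87.3% and 88.9% of the lists, and 0 genes were called in opposite directions. Both comparisons cross the same separately scaled tables, so that differences between the tables would recur in both. Their part in the shared calls was not tested. The culture without DL1 had 1953 genes higher (15.4%) and 2273 lower (17.9%) than the same fresh controls, of 12673 compared, and no overlap for 84.3%.

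**Figure D1:**
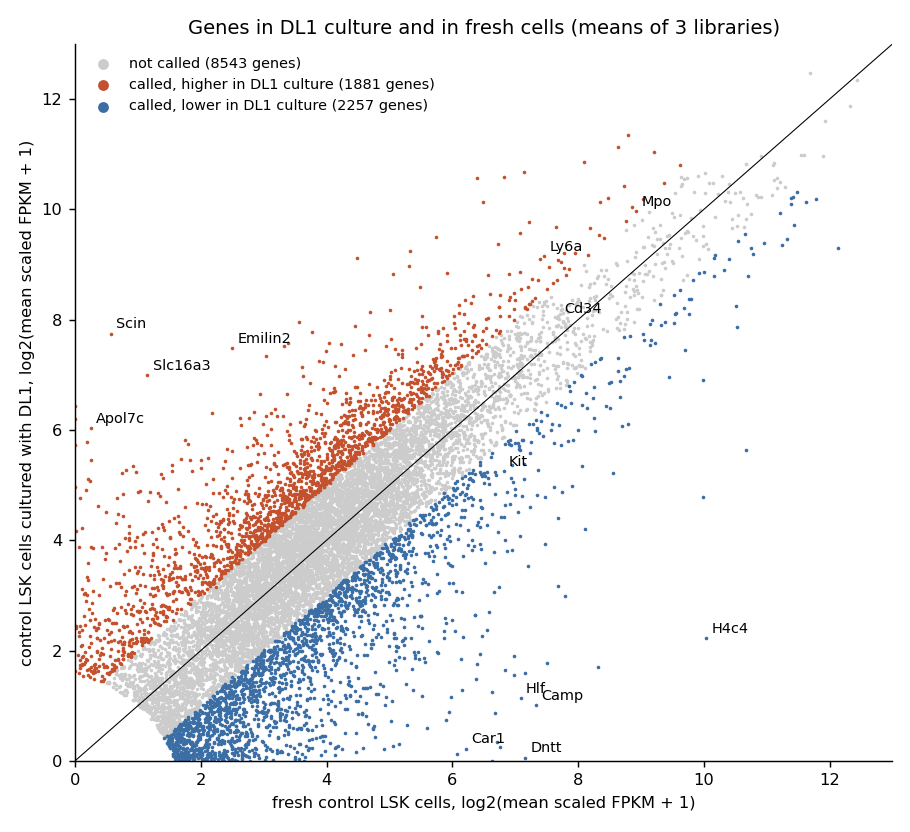
Each point is 1 of 12681 genes, with its mean level in fresh control cells on the x axis and in control cells cultured with DL1 on the y axis, both as log2(mean scaled FPKM + 1) over 3 libraries. Called genes are coloured, 1881 above and 2257 below the line of equal level, and genes such as Scin and Hlf lie far from it.

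**Figure D2:**
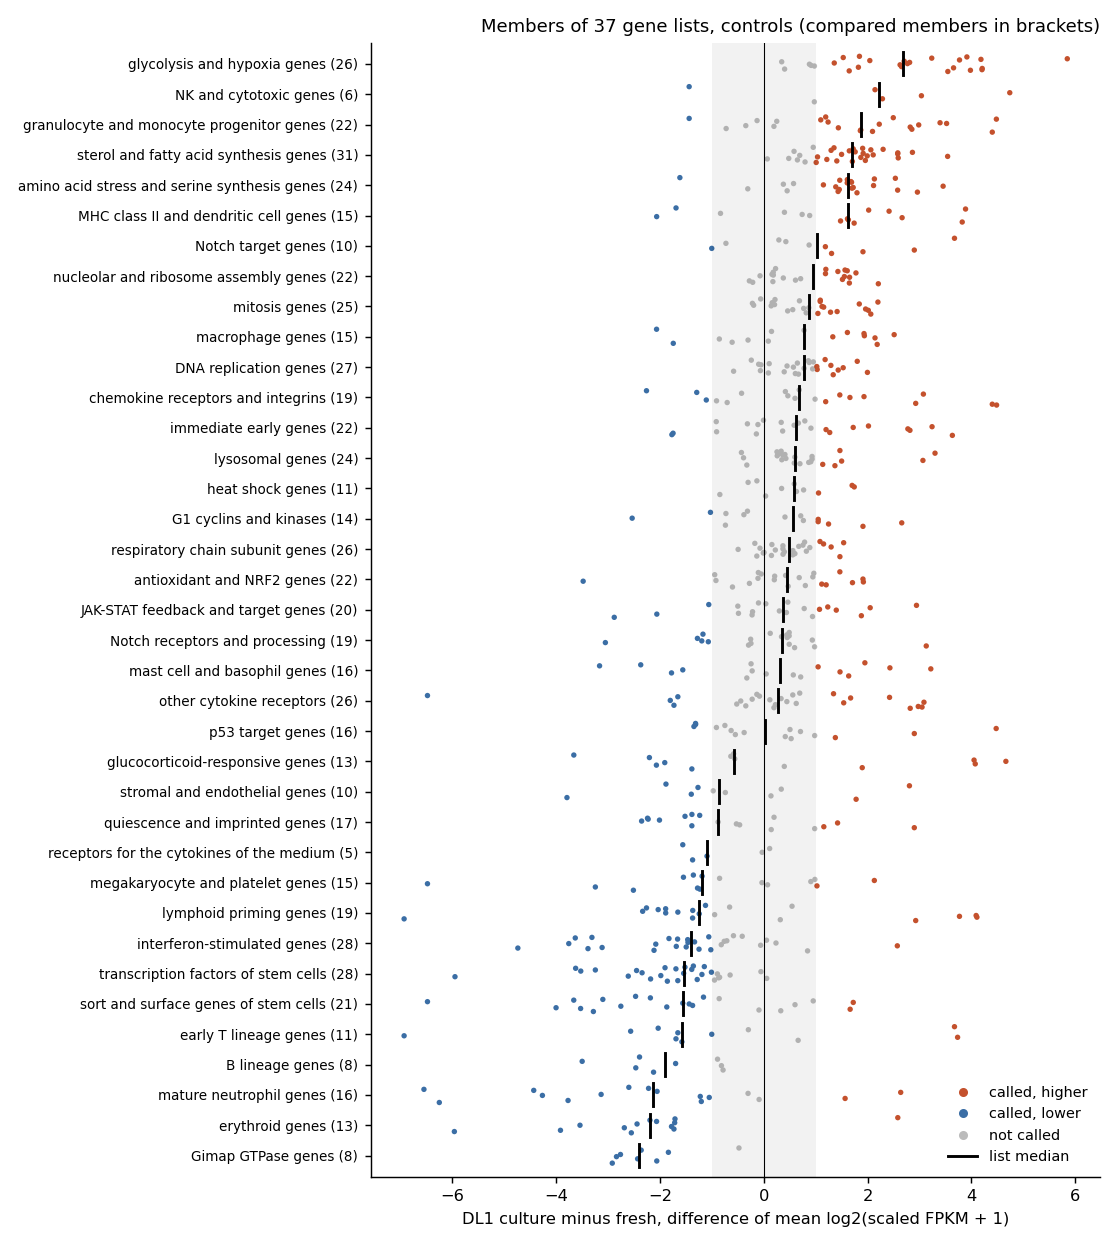
Each point is a compared member of a gene list, placed by its difference between DL1 culture and fresh controls on the log2(scaled FPKM + 1) scale. Black bars are list medians, which run from -2.40 for the Gimap genes to 2.68 for the glycolysis and hypoxia genes, and the grey band covers differences under 1 in size.

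The gene that was higher by the most was Scin, which encodes the actin-severing protein scinderin. It stood at 0.362, 0.405 and 0.678 FPKM in fresh libraries and at 212, 185 and 245 in DL1 culture, a difference of 7.18 ± 0.15. Without DL1 it reached 66.3 ± 2.81, and limma gave a further rise with DL1 of 1.70 ± 0.10 (adjusted p = 6.88e-07). Apol7c, an apolipoprotein L family gene, went from 0.188 ± 0.0459 to 64.4 ± 4.31 (5.78 ± 0.063), against 12.3 ± 4.10 without DL1. Cdh1, the gene of the adhesion molecule E-cadherin, went from 0.178 ± 0.175 to 32.8 ± 10.9 (4.80 ± 0.29), against 4.70 ± 1.41 without DL1. Emilin2, which encodes a protein of the extracellular matrix, was at 4.65 ± 0.502 in fresh cells, 178 ± 7.34 with DL1 (4.99 ± 0.083) and 214 ± 13.7 without it. Saa3, an acute-phase protein gene, was at 0.145 ± 0.0337 in fresh cells, 53.7 ± 18.6 with DL1 (5.52 ± 0.28) and 553 ± 129 without it, so that it was lower with the ligand (limma, -3.34 ± 0.23, adjusted p = 1.56e-06). Clec4n, the gene of the fungal sugar receptor dectin-2, followed the same order, at 0.152 ± 0.136, 33.7 ± 6.06 (4.91 ± 0.18) and 99.1 ± 20.7. Stfa1, a cystatin-type protease inhibitor gene with near-identical neighbours, went from 0.194 ± 0.115 to 43.0 ± 4.64 (5.20 ± 0.12).

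On the other side, 4 of the 10 genes that were lower by the most were histone genes of the set above. H4c4 had 944.9 to 1190 FPKM in fresh and 3.27 to 4.21 in DL1 libraries (-7.81 ± 0.13), and H2bc14 (-6.61 ± 0.081), H4c14 (-6.38 ± 0.16) and H1f5 (-5.82 ± 0.17) followed. Genes of stem cells and of differentiating lineages followed, among them Dntt, Hlf, Camp, Car1 and Retnlg, which are taken up with their lists.

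The genes of the sort markers went in opposite directions. Kit, the receptor for stem cell factor, had 106, 104 and 125 FPKM in fresh libraries and 36.7, 36.3 and 38.3 in DL1 culture, 3.01-fold lower (-1.56 ± 0.088), and its rank percentile among all names of a library went from 97.2 to 89.3. Ly6a, which encodes Sca1, had 135, 224 and 166 in fresh libraries and 564, 561 and 576 in DL1 culture, 3.24-fold higher (1.72 ± 0.21). Neither pair of groups overlapped. Both genes stayed well expressed, which sorting the fresh and the cultured cells for cKit and Sca1 sets in advance. Both were at like levels without DL1, 33.8 ± 2.71 for Kit and 481 ± 62.8 for Ly6a. Cd34, which encodes a sialomucin of progenitors, differed by 0.33 ± 0.027, at 206 ± 6.25 in fresh cells and 258 ± 2.83 in DL1 culture. Cd48, a marker of multipotent progenitors, differed by -0.09 ± 0.14.

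Many surface genes of stem and progenitor cells within the LSK gate were lower. Of 21 compared sort and surface genes of stem cells (22 listed) 2 were higher and 14 lower, with a median of -1.56. The 2 were Ly6a and Cd9 (1.66), the latter named after its value was seen. Called or not, 5 differences were above 0 and 16 below. Procr, the endothelial protein C receptor and a marker of stem cells, had 20.4, 20.2 and 24.4 FPKM in fresh libraries and 0.690, 0.579 and 1.14 in DL1 culture (-3.66 ± 0.16). Emcn, the sialomucin endomucin, went from 16.5 ± 3.92 to 0.0729 ± 0.0417 (-4.00 ± 0.20). No fresh library came near a cultured one for either gene. Ctla2a, a cathepsin inhibitor gene, was 12.3-fold lower (-3.53 ± 0.14) and Cd27, a TNF receptor family gene, 10.2-fold lower (-3.28 ± 0.029). Slamf1, which encodes CD150, was low in both, 3.18 ± 0.604 in fresh cells and 1.29 ± 0.0511 in DL1 culture, and was not called (-0.86 ± 0.13). In bulk RNA, fewer cells of a kind and less RNA per cell cannot be told apart, here and in all lists below. In irradiated cells 14 of 20 of these genes were lower and 2 higher. Without DL1 the counts were 13 lower and 3 higher of 21.

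Transcription factors of stem cells were lower as a group, 21 of 28 with none higher, at a median of -1.53. Hlf, a PAR-type bZIP factor specific to immature cells, had 131, 120 and 153 FPKM in fresh libraries and 1.02, 1.26 and 1.301 in DL1 culture, 113-fold lower (-5.95 ± 0.12). Mecom, the Evi1 locus that long-term stem cells need, had 12.2, 11.2 and 14.5 against 0.174, 0.200 and 0.161, 70.9-fold lower (-3.53 ± 0.10). Mllt3, a subunit of the super elongation complex, was 15.3-fold lower (-3.25 ± 0.15) and the homeobox gene Hoxa10 23.7-fold lower (-2.61 ± 0.077). The factor genes Gfi1 (0.06 ± 0.074) and Lyl1 (-0.06 ± 0.085) of the same list barely differed. In Hlf and Hoxa10 the DL1 culture lay below the culture without DL1. Hlf fell with DL1 from 3.03 ± 0.358 to 1.19 ± 0.152 FPKM (limma, -0.87 ± 0.094, adjusted p = 3.36e-05) and Hoxa10 from 2.37 ± 0.253 to 0.290 ± 0.106 (-1.40 ± 0.20, adjusted p = 2.87e-04). Of 25 members tested in culture 9 fell and 4 rose with DL1, where 12.3% of all genes fell and 13.9% rose. In irradiated cells 23 of 28 were lower in DL1 culture than in fresh cells and 0 higher.

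**Figure D3:**
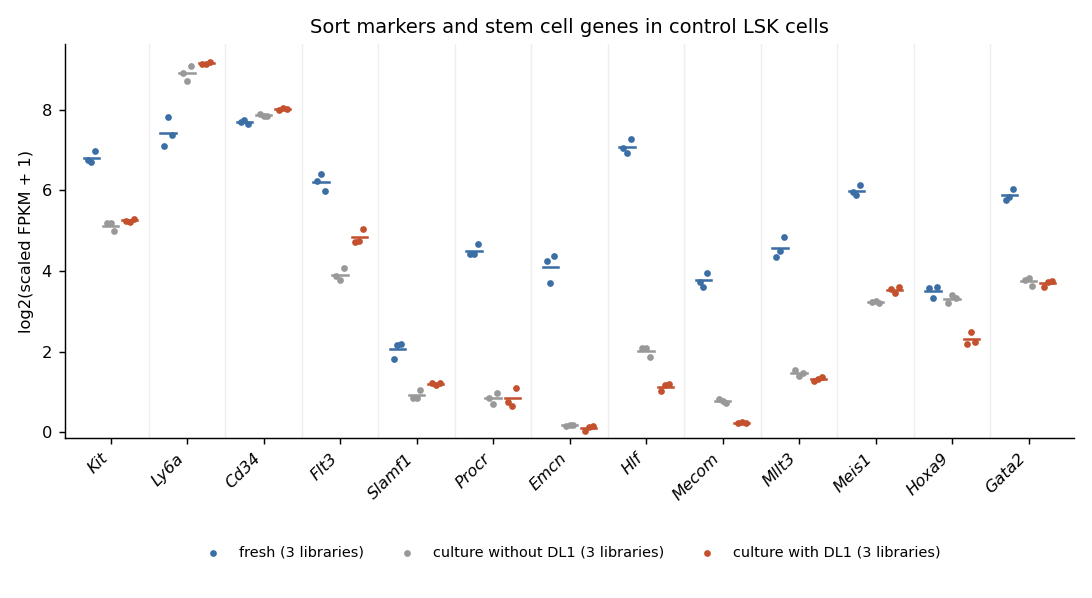
Levels of sort markers and stem cell genes in each control library, as log2(scaled FPKM + 1), with horizontal bars at the mean of 3 libraries for fresh cells, culture without DL1 and culture with DL1. Ly6a is higher in both cultures and Cd34 changes little, while Emcn and Mecom lie near 0 in the DL1 cultures.

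Genes linked to quiescence were mixed, with 3 of 17 compared higher, 8 lower and a median of -0.88, and 3 below the filter. Cdkn1c, the p57 inhibitor of cyclin-dependent kinases that keeps stem cells at rest, had 3.08, 2.67 and 2.75 FPKM in fresh libraries and 0.429, 0.337 and 0.647 in DL1 culture (-1.39 ± 0.10, -0.52 with a pseudocount of 5). Foxo3, a transcription factor of resting and stressed cells, was 5.48-fold lower (-2.35 ± 0.073), and the imprinted gene Igf2r was 24.9-fold lower (-2.24 ± 0.11, -0.89 with a pseudocount of 5). Grb10, an imprinted adaptor gene, was lower in DL1 culture than in both other groups, at 16.1 ± 4.75 in fresh cells, 18.4 ± 3.20 without DL1 and 2.56 ± 0.339 with it (limma, -2.42 ± 0.18, adjusted p = 2.69e-06). Cdkn1a, the p21 inhibitor and a p53 target, went the other way, from 5.29, 6.75 and 6.37 to 49.9, 57.5 and 49.1 (2.90 ± 0.12).

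Genes of DNA replication and mitosis were higher or little different, and none was lower. Of 27 replication genes 9 were higher, at a median of 0.78. Fen1, the flap endonuclease that matures Okazaki fragments, had 19.8, 17.5 and 17.8 FPKM in fresh libraries and 75.1, 74.0 and 79.6 in DL1 culture (1.996 ± 0.061), and Rrm2, a subunit of ribonucleotide reductase, was 3.53-fold higher (1.80 ± 0.081). Of 25 mitosis genes 12 were higher, at a median of 0.87. Plk1, a kinase of mitotic entry, had 13.3, 16.3 and 9.74 against 63.3, 61.2 and 63.5 (2.20 ± 0.20), and Aurka (2.06 ± 0.10), Ccnb1 (2.01 ± 0.11) and Cdc20 (1.96 ± 0.082) were higher too. Mki67, the proliferation marker, did not follow them, with 97.0, 101 and 100 in fresh and 90.1, 82.3 and 83.5 in DL1 libraries (-0.22 ± 0.044), and Ube2c differed by -0.06 ± 0.053. The G1 kinases split. Cdk6, the cyclin D partner of stem and progenitor cells, was 6.00-fold lower (-2.54 ± 0.096), while the cyclins Ccne1 (2.66 ± 0.20), Ccnd1 (1.91 ± 0.14) and Ccnd3 (1.25 ± 0.054) were higher. Cdk4 was called at 1.05 ± 0.035, but not under upper-quartile scaling (0.94) or without fresh replicate 2 (0.999).

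Of the 5 receptors for the cytokines of the medium, Kit, Flt3 and Il11ra1 were lower and the IL-6 receptors barely differed. Flt3, the receptor of lymphoid-primed progenitors, had 73.8, 84.1 and 62.3 FPKM in fresh libraries and 25.5, 25.9 and 31.7 in DL1 culture (-1.37 ± 0.16). It was lower still without DL1, at 14.03 ± 1.61, and rose with DL1 (limma, 0.96 ± 0.13, adjusted p = 1.94e-04). Il11ra1 had 11.9, 10.3 and 11.2 against 5.13, 4.76 and 4.18 (-1.09 ± 0.088, -0.74 with a pseudocount of 5). Il6ra (-0.03 ± 0.16) and the shared chain Il6st (0.11 ± 0.061) were close to their fresh levels with DL1. Without DL1 Il6st was at 26.8 ± 3.12, and it fell with DL1 to 15.4 ± 0.853 (-0.73 ± 0.14, adjusted p = 0.00266), near the 14.2 ± 0.790 of fresh cells. Of 26 compared other cytokine receptors (29 listed) 8 were higher and 4 lower. The shared chain of the IL-3, IL-5 and GM-CSF receptors, Csf2rb, was 8.58-fold higher (3.05 ± 0.18), as was its close copy Csf2rb2 (2.98 ± 0.19). Il10ra was 10.1-fold higher (3.08 ± 0.21), and the M-CSF receptor gene Csf1r was 7.67-fold higher (2.82 ± 0.33), from 6.80 ± 3.03 to 52.1 ± 9.24.

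Downstream of these receptors 6 of 20 JAK-STAT genes were higher and 3 lower. Socs3, which is induced by gp130 signals and blocks them, had 5.03, 3.06 and 2.68 FPKM in fresh libraries and 34.0, 36.98 and 29.7 in DL1 culture (2.94 ± 0.24). Ptpn6, the SHP1 phosphatase, was 4.21-fold higher (2.05 ± 0.020). Cish, a target of STAT5, was 6.31-fold lower (-2.06 ± 0.31) and the survival gene Bcl2 9.14-fold lower (-2.88 ± 0.11). Bcl2 fell with DL1 among the cultures as well (limma, -0.59 ± 0.061, adjusted p = 2.43e-05). Stat3 itself differed by 0.04 ± 0.028.

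Of 19 compared genes of the Notch receptors and their processing 1 was higher and 5 were lower, and 2 were below the filter. These shares, 5.26% and 26.3%, stand against 14.8% higher and 17.8% lower over all genes. Notch1 had 9.9996, 11.5 and 10.2 FPKM in fresh libraries and 8.84, 8.66 and 8.58 in DL1 culture (-0.25 ± 0.056). Notch2 was 2.55-fold lower, at 31.8 ± 3.43 and 12.5 ± 0.741 (-1.28 ± 0.10), and was at 13.8 ± 0.871 without DL1. The nuclear partner Rbpj differed by 0.12 ± 0.021. Among the gamma-secretase subunits Aph1a was 9.84-fold higher (3.13 ± 0.073) and Psenen 2.28-fold lower (-1.17 ± 0.086), and the coactivator gene Maml2 went from 8.26 ± 1.49 to 0.107 ± 0.0329 (-3.05 ± 0.13). These genes had like levels without DL1, 72.9 ± 2.58 for Aph1a, 65.4 ± 3.17 for Psenen and 0.184 ± 0.0202 for Maml2.

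Several Notch targets were higher in the DL1 culture than in both other groups. Hes1, the repressor that Notch induces directly, had 0.566, 0.670 and 0.768 FPKM in fresh libraries, 0.568, 0.781 and 0.503 in culture without DL1 and 2.86, 2.43 and 3.12 with DL1. The DL1 libraries were above all others, at a difference of 1.19 ± 0.093 to fresh cells and 1.27 ± 0.12 to culture without DL1 (limma, adjusted p = 1.46e-05). With a pseudocount of 5 the first of these was 0.46 and not called. Tcf7, which encodes the T lineage factor TCF1, had 1.80, 2.15 and 1.81 in fresh libraries, 4.57, 3.03 and 5.28 without DL1 and 34.7, 28.0 and 48.4 with DL1, 19.3-fold above fresh cells (3.67 ± 0.23) and higher by 2.87 ± 0.25 within culture (adjusted p = 7.55e-06). Nrarp, a feedback inhibitor of Notch, rose with DL1 within culture (0.57 ± 0.13, adjusted p = 0.00628), but its fresh libraries at 1.71, 1.45 and 3.29 overlapped the DL1 libraries at 3.12, 2.90 and 3.30 (0.42 ± 0.25). Dtx1, the E3 ligase Deltex1, stayed under 1 FPKM in all groups, at 0.102 ± 0.0633 in fresh cells, 0.417 ± 0.106 with DL1 and, without it, at 0.0203 in 1 library and listed at 0 in the other two. Of 10 compared targets 5 were higher than in fresh cells and 1 lower, at a median of 1.03, while 9 were below the expression filter. The irradiated comparison had fewer, 3 higher and 1 lower of 10, at a median of 0.78. The 5 higher in controls were Tcf7, Cdkn1a, Ccnd1, Bcl2a1a and Hes1, and Tcf7, Cdkn1a and Ccnd1 also stand in other lists. Below the filter, differences were -1.33 for Cd3e, -1.22 for Hes5, -0.39 for Ptcra, -0.24 for Il2ra and -0.03 for Hes7. They were -1.54e-05 for Heyl, 0 for Hey2, 0.34 for Hey1 and 0.36 for Dtx1. Apart from Dtx1 and Cd3e, these were named after their values were seen. Within culture 7 of 10 tested rose with DL1 and 0 fell. Against the same fresh controls, the culture without DL1 had 2 targets higher and 1 lower of 9.

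The early T lineage genes did not move together. Of 11 compared 2 were higher and 7 lower (median -1.58), and 12 were below the filter. Cd7, a surface molecule of early T and NK cells, was the second gene that was higher, with 1.71, 2.11 and 1.08 FPKM in fresh libraries, 4.21, 2.55 and 4.19 without DL1 and 33.2, 29.1 and 39.1 with DL1 (3.73 ± 0.21). Gata3, a factor of T cell commitment, had 3.93, 4.78 and 5.24 in fresh libraries and 1.44, 1.53 and 2.57 with DL1, which lies at the limit of the call (-1.003 ± 0.20). It was not called without DL1 culture replicates 1 (-0.89) or 2 (-0.91), without fresh replicate 3 (-0.94), when libraries were scaled to their sum (-0.997) or with a pseudocount of 5 (-0.50). Gata3 was at 0.192 ± 0.0800 without DL1 and rose with DL1 (limma, 1.28 ± 0.16, adjusted p = 9.97e-05). Lat, an adaptor of the T cell receptor that mast cells and platelets also use, was 7.11-fold lower than in fresh cells (-2.56 ± 0.20), and rose with DL1 within culture (0.85 ± 0.15, adjusted p = 0.00136). Cd3e, which defines committed T cells, was at 1.79 ± 0.878 in fresh cells and 0.0652 ± 0.0301 with DL1, under the filter. Of 7 members tested in culture 5 rose with DL1 and 0 fell.

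Genes of lymphoid priming and of the B lineage were mostly lower. Dntt, the terminal transferase of lymphoid-primed progenitors, had 124, 230 and 69.8 FPKM in fresh libraries and 0.0171, 0.0154 and 0.0931 in DL1 culture (-6.93 ± 0.49), and was as low without DL1, at 0.0396 ± 0.0544. Rag2, part of the recombinase of antigen receptor genes, went from 3.30 ± 1.45 to 0.0136 ± 0.00651 (-2.04 ± 0.27, -0.71 with a pseudocount of 5). Of 19 compared lymphoid priming genes (21 listed) 4 were higher and 11 lower. The 4 were Ccr7, a homing receptor, and the genes of 3 inhibitors of E proteins. Id1 had 0.307, 0.693 and 0.749 against 27.2, 27.9 and 23.2 (4.11 ± 0.16), Id2 was 15.01-fold higher (3.77 ± 0.27) and Id3 39.5-fold higher (4.09 ± 0.17). Id1 and Id3 were at 36.9 ± 4.83 and 37.5 ± 10.3 without DL1. Of 8 compared B lineage genes 0 were higher and 5 lower, and 5 were below the filter. Pou2af1, a B cell coactivator gene, had 5.83, 19.1 and 9.54 in fresh libraries and was listed at 0 in all 3 DL1 libraries and all 3 libraries without DL1. Ebf1 and Pax5, factors that define the B lineage and were looked at after their values were seen, were low already in fresh cells, at 0.481, 0.738 and 1.18 and at 0.958, 0.516 and 1.49, and were listed at 0 in the DL1 libraries. Cd79a, a chain of the B cell receptor, went from 5.05 ± 1.23 to 0.0800 ± 0.0299 (-2.47 ± 0.18, -0.98 with a pseudocount of 5).

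Granulocyte and monocyte progenitor genes were higher in DL1 culture, 16 of 22 with 1 lower, at a median of 1.86. Cebpa, the gene of C/EBPα, had 8.31, 13.6 and 6.00 FPKM in fresh libraries and 41.7, 42.2 and 39.2 in DL1 culture, 4.41-fold higher (2.09 ± 0.31). Without DL1 it was at 50.1 ± 3.01, and it fell with DL1 (limma, -0.26 ± 0.083, adjusted p = 0.0396). Ms4a3, a membrane protein gene of granulocyte and monocyte progenitors, had 7.96, 16.7 and 7.60 in fresh libraries and 254, 255 and 231 with DL1 (4.48 ± 0.34). The chemokine receptor gene Ccr2 (4.40 ± 0.38), the Fc receptor gene Fcgr3 (3.52 ± 0.34), the haptoglobin gene Hp (3.40 ± 0.21) and the granule protease genes Ctsg (2.98 ± 0.32) and Elane (2.22 ± 0.33) were higher as well. In fresh replicate 2 Cebpa, Ms4a3, Ccr2 and Elane were each above the other 2 fresh libraries, and still below all DL1 libraries. Mpo, the granule peroxidase, had 406, 690 and 361 against 950, 1046 and 1000, a difference of 1.10 ± 0.29 that was not called under upper-quartile scaling (0.99) or without fresh replicates 1 (0.98) or 3 (0.90). With DL1 these genes were mostly between fresh cells and culture without DL1. Within culture 17 of 22 fell with DL1 and 1 rose, Ms4a3 from 405 ± 28.3 to 247 ± 13.6 (-0.69 ± 0.077, adjusted p = 4.62e-05) and Elane from 494 ± 32.6 to 307 ± 39.0 (-0.66 ± 0.14, adjusted p = 0.00450). Nkg7, a granule gene of cytotoxic cells and myeloid progenitors, was the member that was lower than in fresh cells (-1.44 ± 0.081) and the one that rose with DL1 (0.82 ± 0.11, adjusted p = 2.21e-04).

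Markers of mature myeloid cells were unlike one another. Of 15 compared macrophage genes 7 were higher and 2 lower, with 10 below the filter, and the 25 in the table summed to 132 to 218 FPKM in fresh libraries, 247 to 282 with DL1 and 573 to 896 without it. Gpnmb, a glycoprotein gene of macrophages, went from 0.161 ± 0.0909 to 5.74 ± 1.66 (2.51 ± 0.22) and was at 69.7 ± 19.1 without DL1. Adgre1, an adhesion receptor gene of macrophages, was 7.32-fold higher (2.18 ± 0.13). Within culture 16 of 21 macrophage genes fell with DL1 and 0 rose, with Gpnmb at -3.37 ± 0.20 (adjusted p = 6.88e-07). Apoe, a lipoprotein gene of macrophages chosen for mention after its values were seen, was lower with DL1 than in either other group, at 71.8 ± 17.9 in fresh cells, 185 ± 46.3 without DL1 and 20.3 ± 2.02 with it (-1.74 ± 0.24 against fresh). Genes of mature neutrophils were mostly lower, 12 of 16 with 2 higher (median -2.14). The 2 were Mmp8 (2.64) and Fcnb (1.57), named here after their values were seen. The irradiated comparison had 8 lower and 2 higher of 16, at a smaller median of -1.04. Camp, the cathelicidin of secondary granules, had 96.7, 193 and 188 against 1.005, 1.13 and 0.895 (-6.25 ± 0.33). Retnlg, a resistin-like gene of late neutrophils, had 54.1, 119 and 122 and was listed at 0 in all DL1 libraries, while the libraries without DL1 had 0.247, 0.0814 and 0.265. The granule genes Ngp (-4.43 ± 0.36), Ltf (-4.27 ± 0.34) and Chil3 (-3.77 ± 0.38) were lower too. The 16 neutrophil genes summed to 2306 to 4753 in fresh libraries and 753 to 825 with DL1. The presence of these markers in fresh LSK cells moves with the group, and its part in the differences of the other lists was not tested.

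**Figure D4:**
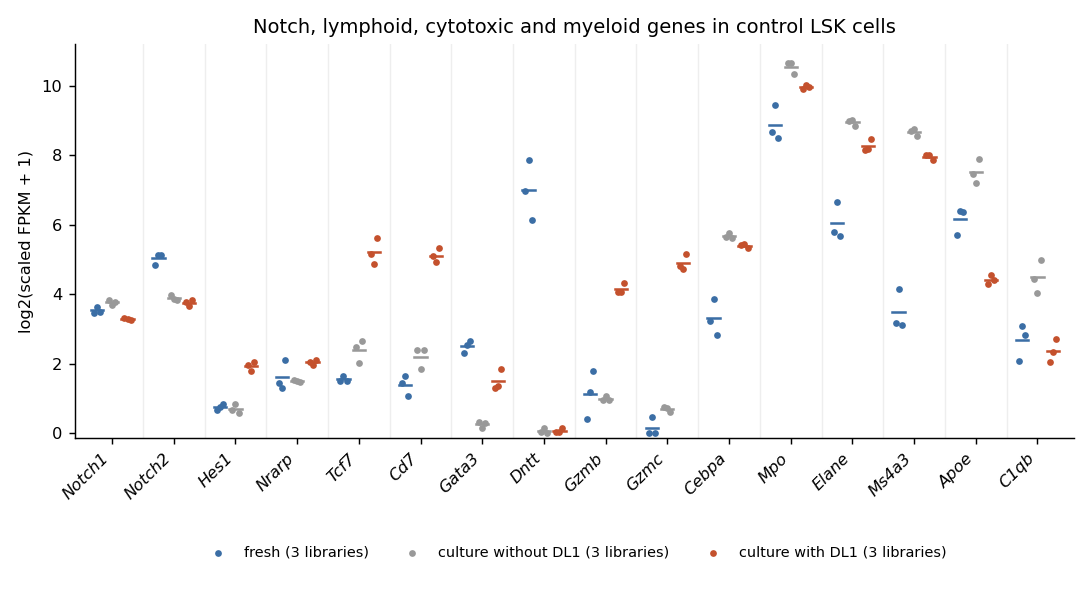
Levels of Notch, lymphoid, cytotoxic and myeloid genes in each control library, as log2(scaled FPKM + 1), with bars at the mean of 3 libraries for fresh cells, culture without DL1 and culture with DL1. Hes1, Tcf7, Cd7, Gzmb and Gzmc are highest with DL1, and Cebpa, Mpo, Elane and Ms4a3 are highest without it.

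The granzyme genes Gzma, Gzmb and Gzmc, the NK receptor gene Klrd1 and several genes of dendritic cells were higher in DL1 culture. The other listed NK and cytotoxic genes were not called higher. Gzmb, a granule protease that induces death of target cells, had 0.309, 1.25 and 2.41 FPKM in fresh libraries, 0.935, 1.10 and 0.922 without DL1 and 15.7, 15.8 and 18.8 with DL1 (3.04 ± 0.41 against fresh, and 3.20 ± 0.076 within culture, limma, adjusted p = 1.97e-10). Gzmc, a related granzyme, was listed at 0 in 2 fresh libraries and at 0.386 in the third, was at 0.611 ± 0.0829 without DL1 and at 29.0 ± 5.01 with it (4.26 ± 0.14 within culture, adjusted p = 5.04e-09). The granzymes are close relatives, and how reads shared between them were counted is not given in the sources used here. Klrd1, the NK receptor chain CD94, was 6.12-fold higher than in fresh cells (2.14 ± 0.36). Of 16 listed NK and cytotoxic genes 4 were called higher and 1 lower, and 10 were below the filter, so that 6 were compared. Gzmc was among those that passed it through the DL1 group. Those below it had differences of -1.05 for Klrb1c, -1.22 for Il2rb, -0.38 for Ncr1 and -0.44 for Klrk1, all receptor genes of NK cells, -0.20 for the NK factor gene Eomes and -0.07 for the perforin gene Prf1. The granzyme genes Gzmk and Gzmm were below it as well, with differences of 0 and 0.20. All these genes below the filter were named after their values were seen. Within culture the 6 members tested rose with DL1, where 13.9% of all genes rose. A member can pass the filter of that test through its DL1 libraries alone, so the count says little about the list as a whole. Of 15 compared MHC class II and dendritic cell genes (19 listed) 9 were higher and 2 lower (median 1.61). Itgax, which encodes CD11c, had 0.773, 1.61 and 0.633 in fresh libraries, 3.29, 2.46 and 3.82 without DL1 and 27.3, 24.4 and 33.0 with it (3.89 ± 0.24). Ciita, the master regulator of class II genes, was 11.0-fold higher (2.66 ± 0.073) and H2-Eb1, a class II chain, 5.31-fold higher (2.41 ± 0.31). Clec9a, a receptor of cross-presenting dendritic cells, went the other way, from 3.50 ± 1.44 to 0.0408 ± 0.0189 (-2.06 ± 0.26, -0.74 with a pseudocount of 5). Itgax rose with DL1 within culture (2.84 ± 0.22, adjusted p = 3.29e-06), and of 13 members tested 5 rose and 0 fell.

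Mast cell protease genes were high in DL1 culture but uneven between libraries. Mcpt1, a chymase of mucosal mast cells, was listed at 0 in all fresh libraries and had 11.8, 76.4 and 169 FPKM with DL1. Mcpt2 was also listed at 0 in fresh cells and had 9.91, 39.8 and 107, and Mcpt4 had 4.23, 13.2 and 39.5 against 0.576 ± 0.323 (3.22 ± 0.87). In each of these replicate 3 was the highest and replicate 1 the lowest of the DL1 libraries, so that the genes shared the same order across libraries. Without DL1 Mcpt1 was at 0.183 ± 0.105 and Mcpt2 at 2.37 ± 0.918, and both rose with DL1 (limma, 5.61 ± 0.67, adjusted p = 7.10e-05, and 3.51 ± 0.67, adjusted p = 0.00201). These proteases are near neighbours of like sequence, so that shared reads make the single values uncertain. Mcpt8, the basophil protease, was even, at 43.5, 49.8 and 43.5 with DL1 and 8.01 ± 3.35 in fresh cells (2.43 ± 0.30). Prss34, another basophil protease (-2.37 ± 0.32), and Prg2, the major basic protein of eosinophils (-3.16 ± 0.69), were lower. Of 16 compared members (20 listed) 6 were higher and 4 lower.

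Erythroid and megakaryocyte genes were mostly lower. Of 13 compared erythroid genes (17 listed) 12 were lower and 1 higher (median -2.19). Car1, the carbonic anhydrase of early erythroid cells, had 50.5, 96.1 and 74.3 FPKM in fresh libraries and 0.249, 0.110 and 0.124 in DL1 culture (-5.96 ± 0.27). Car2 was 15.9-fold lower (-3.92 ± 0.11), and the globin gene Hba-a1, which has a near-identical copy, went from 14.5 ± 5.40 to 0.278 ± 0.183 (-3.54 ± 0.33). The member that was higher was Tfrc, the transferrin receptor that dividing cells of any lineage use, with 18.95, 15.3 and 15.2 against 100, 98.6 and 111 (2.58 ± 0.11). Of 15 compared megakaryocyte and platelet genes (20 listed) 8 were lower and 2 higher (median -1.19). The platelet receptor genes Gp9 (-3.25 ± 0.22) and F2r (-2.51 ± 0.094) were lower, and the platelet chemokine gene Ppbp was higher (2.13 ± 0.49), at 14.1 ± 2.09 against 2.76 ± 1.73. Of 10 compared stromal and endothelial genes 2 were higher and 4 lower, and 10 were below the filter. Bgn, a matrix proteoglycan gene, went from 14.1 ± 2.73 to 0.0792 ± 0.0252 (-3.79 ± 0.15). Thbs1, the matrix protein thrombospondin 1, was 5.65-fold higher than in fresh cells (2.80 ± 0.80), whose libraries had 2.47, 19.05 and 3.61, and fell with DL1 within culture from 167 ± 18.9 to 47.3 ± 8.35 (-1.78 ± 0.15, adjusted p = 7.24e-06).

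The list that stood highest held genes of glycolysis and of the response to low oxygen. Of 26 members 21 were higher and 0 lower, at a median of 2.68, against 14.8% higher over all genes. Slc16a3, the lactate exporter MCT4, had 1.18, 1.28 and 1.19 FPKM in fresh libraries and 127, 128 and 125 in DL1 culture, 104-fold higher (5.85 ± 0.023). Egln3, an oxygen sensor that is itself induced by hypoxia-inducible factors, had 10.7, 7.90 and 8.45 against 180, 189 and 180 (4.21 ± 0.12). Bnip3, a gene of mitophagy, had 9.58, 8.76 and 9.89 against 183, 206 and 184 (4.20 ± 0.073), and Ankrd37 was 21.2-fold higher (3.98 ± 0.23). Pkm, the pyruvate kinase of dividing cells (listed as PKM2), had 80.1, 82.5 and 85.9 against 1487, 1560 and 1517 (4.18 ± 0.035). Pfkm, a muscle-type phosphofructokinase (0.34 ± 0.12), and Bnip3l (0.40 ± 0.054) differed little. Ldha, lactate dehydrogenase A, went from 274 ± 30.1 to 1860 ± 39.2 (2.77 ± 0.091) and is included for its promoter, after its values had been seen. Genes such as Ldha and Pkm have processed copies elsewhere in the genome, and how the authors counted reads that match several places is not given in the sources used here, so that their levels are uncertain. Without DL1 Slc16a3 was at 157 ± 13.6, Egln3 at 180 ± 0.929 and Bnip3 at 226 ± 10.2, and 23 of 26 members were higher than in the same fresh cells. Within culture 2 rose and 7 fell with DL1. In irradiated cells 23 of 26 were higher in DL1 culture than in fresh cells and 0 lower, at a median of 2.58.

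Hypoxia-inducible factors recognise a core of letters that many genes of this list carry near their start. The 5 letters ACGTG, or CACGT on the other strand, were searched in RefSeq promoters of GRCm38.p6, from 250 bases before to 50 after each start. On the palindrome CACGTG both strands match and overlap. They were found in 20 of 37 promoters of the 24 list genes that matched (54.0%) and in 19.6% of all 32851 promoters. For the called members the count was 15 of 29. A match is a description of letters and not a binding site. The promoters of 3 genes that were far higher in culture are shown with the matches in capitals. They lie at chr7:46845554-46845853 on the plus strand for Ldha (5 matches), at chr11:120948817-120949116 on the plus strand for Slc16a3 (2 matches) and at chr7:138909457-138909756 on the minus strand for Bnip3 (2 matches).
Ldha: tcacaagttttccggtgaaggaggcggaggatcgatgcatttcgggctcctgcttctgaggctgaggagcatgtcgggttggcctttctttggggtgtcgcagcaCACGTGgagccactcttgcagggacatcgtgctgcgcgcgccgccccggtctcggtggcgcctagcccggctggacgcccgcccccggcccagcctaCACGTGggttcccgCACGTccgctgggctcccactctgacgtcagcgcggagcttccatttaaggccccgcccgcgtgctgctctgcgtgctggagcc
Slc16a3: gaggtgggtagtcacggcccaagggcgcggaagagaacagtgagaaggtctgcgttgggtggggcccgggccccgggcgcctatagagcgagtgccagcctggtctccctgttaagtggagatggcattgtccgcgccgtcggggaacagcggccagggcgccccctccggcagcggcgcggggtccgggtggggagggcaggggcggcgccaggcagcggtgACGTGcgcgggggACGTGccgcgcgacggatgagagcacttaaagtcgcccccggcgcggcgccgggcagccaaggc
Bnip3: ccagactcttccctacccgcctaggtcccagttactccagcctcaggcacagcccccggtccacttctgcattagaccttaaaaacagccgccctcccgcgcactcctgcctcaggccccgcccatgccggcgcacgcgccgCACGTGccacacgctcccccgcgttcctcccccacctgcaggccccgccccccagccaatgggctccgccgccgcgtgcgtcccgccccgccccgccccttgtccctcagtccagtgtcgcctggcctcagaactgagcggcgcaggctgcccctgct

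**Figure D5:**
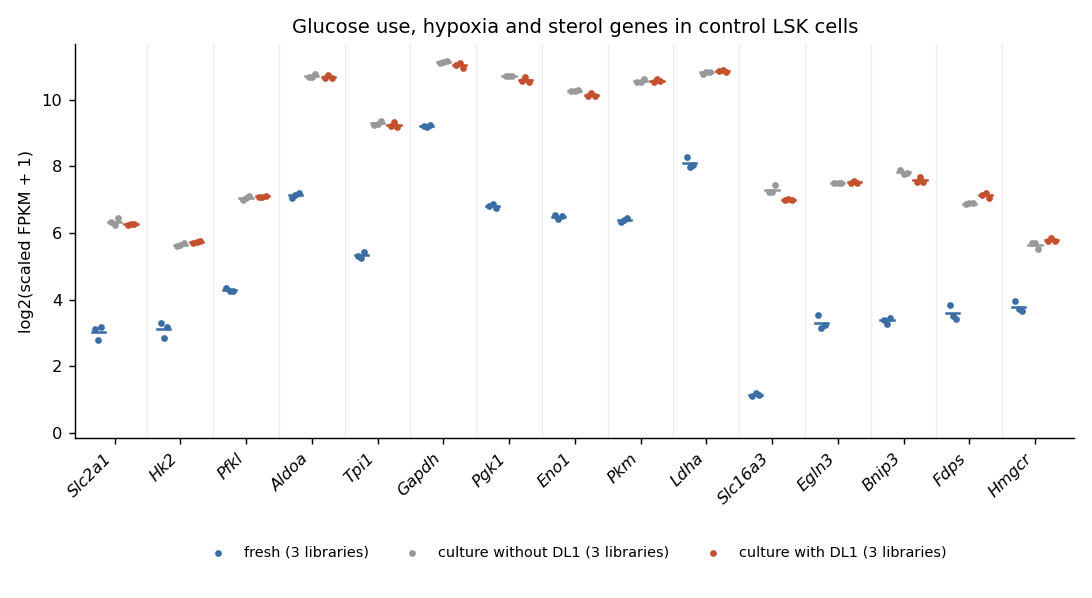
Levels of genes of glucose use, low oxygen and sterol synthesis in each control library, as log2(scaled FPKM + 1), with bars at the mean of 3 libraries for fresh cells, culture without DL1 and culture with DL1. All genes shown are higher in both cultures than in fresh cells, and the 2 cultures lie close together, for example Slc16a3 at 127 FPKM with DL1 and 157 without it.

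Genes of sterol and fatty acid synthesis were higher too, 24 of 31 compared (33 listed) with 0 lower, at a median of 1.71. Fdps, which makes farnesyl diphosphate, had 13.3, 10.5 and 9.72 FPKM in fresh libraries and 140, 146 and 133 in DL1 culture (3.54 ± 0.13). Mvd (2.86 ± 0.12) and Msmo1 (2.58 ± 0.12) of the same pathway and the desaturase gene Fads2 (2.59 ± 0.14) were higher, while the elongase gene Elovl6 differed by 0.07 ± 0.12. The levels were high without DL1 as well and slightly higher with it. Within culture 19 of 31 rose with DL1 and 0 fell, by small amounts such as 0.28 ± 0.053 for Fdps (limma, adjusted p = 0.00211) and 0.53 ± 0.065 for Fads2 (adjusted p = 7.96e-05). In irradiated cells 23 of 31 were higher than in fresh cells and 0 lower.

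Of 24 compared genes of the amino acid response and of serine synthesis (25 listed) 19 were higher and 1 lower, at a median of 1.62. Mthfd2, a mitochondrial folate enzyme, had 5.76, 6.30 and 5.37 FPKM in fresh libraries and 72.9, 72.1 and 75.5 in DL1 culture (3.45 ± 0.060). Asns, asparagine synthetase, had 7.67, 7.82 and 11.1 against 71.9, 75.7 and 76.8 (2.96 ± 0.16). Chac1, which degrades glutathione (2.58 ± 0.15), the pseudokinase gene Trib3 (2.53 ± 0.066) and the leucine transporter gene Slc7a5 (2.13 ± 0.061) were higher, whereas Ddit3, a stress factor that often rises with them, differed by -0.31 ± 0.13. Within culture 1 of 24 rose and 2 fell with DL1.

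Other housekeeping groups differed less, and their counts stand against 14.8% higher and 17.8% lower over all genes. Of 22 nucleolar and ribosome assembly genes 11 were higher and 0 lower (median 0.95), with Bop1 at 2.21 ± 0.10 and Nolc1 at 1.65 ± 0.076, and the abundant nucleolar protein gene Npm1 at 0.16 ± 0.032. Of 26 respiratory chain genes 5 were higher, a share of 19.2% that is near that of all genes, and 0 were lower (median 0.48). Uqcrc1 of complex III was among the 5 (1.54 ± 0.035). Of 22 antioxidant genes 6 were higher and 1 lower (median 0.44). Hmox1, the heme oxygenase, was 4.04-fold higher (1.91 ± 0.087) and Gsta4, a glutathione transferase, 28.3-fold lower (-3.48 ± 0.17). Of 24 lysosomal genes 6 were higher and 0 lower (median 0.59). Ctsz, a cathepsin, had 23.7, 30.0 and 19.9 FPKM in fresh libraries against 206, 214 and 210 (3.06 ± 0.17), and Lgmn, the protease legumain, was 13.9-fold higher (3.30 ± 0.12). Within culture 18 of 24 lysosomal genes fell with DL1, Psap from 729 ± 124 to 259 ± 40.7 (limma, -1.46 ± 0.15, adjusted p = 2.06e-05), against 93.3 ± 16.6 in fresh cells.

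Interferon-stimulated genes were lower in DL1 culture, 18 of 28 with 1 higher, at a median of -1.40. Ifi44 had 25.6, 42.9 and 27.9 FPKM in fresh libraries and 0.242, 0.207 and 0.185 in DL1 culture (-4.74 ± 0.22). Iigp1, an immunity-related GTPase, had 14.2, 24.5 and 17.0 against 0.395, 0.539 and 0.317 (-3.76 ± 0.23). Oasl2 was 15.7-fold lower (-3.63 ± 0.17), Ifi27l2a 13.8-fold lower (-3.39 ± 0.39), and the antiviral gene Rsad2, which encodes viperin, 26.2-fold lower (-3.31 ± 0.39). In all 5 genes fresh replicate 2 was the highest library. Ly6e (0.05 ± 0.11) and Ifitm2 (-0.06 ± 0.060) kept levels close to those of fresh cells. The member that was higher was Ifitm1, a membrane protein gene also linked to immature cells and with close relatives, from 442 ± 56.9 to 2618 ± 43.4 (2.57 ± 0.11), named here after its value was seen. Within culture 14 of 23 rose with DL1 and 1 fell, among them Oasl2 from 1.84 ± 0.105 to 3.67 ± 0.143 (limma, 0.74 ± 0.12, adjusted p = 6.08e-04). Without DL1 21 of 28 were lower than in the same fresh cells, and in irradiated cells 16 of 28 were lower in DL1 culture and 1 higher.

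Interferon response elements were searched as GAAA, any 2 bases and GAAA again, or TTTC, 2 bases and TTTC on the other strand. Among the list genes 21 matched a promoter, and 14 of their 25 promoters held the letters (56.0%), against 3.44% of all promoters. For the called members the count was 8 of 17. The promoters of Ifit1, an RNA-binding antiviral gene chosen after its values were seen (14.04 ± 4.99 in fresh and 0.678 ± 0.0468 FPKM in DL1 culture, -3.12 ± 0.26), and of Rsad2 are shown with the matches in capitals. Ifit1 is at chr19:34640639-34640938 on the plus strand (2 matches) and Rsad2 at chr12:26456403-26456702 on the minus strand (1 match).
Ifit1: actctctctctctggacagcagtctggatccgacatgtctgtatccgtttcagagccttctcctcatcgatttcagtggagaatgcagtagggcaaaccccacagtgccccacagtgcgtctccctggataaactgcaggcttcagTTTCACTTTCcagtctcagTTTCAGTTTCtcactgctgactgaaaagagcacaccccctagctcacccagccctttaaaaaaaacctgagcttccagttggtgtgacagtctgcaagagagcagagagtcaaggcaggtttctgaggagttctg
Rsad2: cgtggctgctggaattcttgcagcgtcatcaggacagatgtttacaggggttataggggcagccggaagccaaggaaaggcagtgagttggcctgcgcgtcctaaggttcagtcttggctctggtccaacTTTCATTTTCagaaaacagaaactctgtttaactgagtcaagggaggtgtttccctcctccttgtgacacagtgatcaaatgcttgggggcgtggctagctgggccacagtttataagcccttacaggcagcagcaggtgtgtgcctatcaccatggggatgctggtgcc

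The Gimap genes, a cluster of GTPases of lymphocytes that fresh progenitors also express, were lower by the most of all lists, 7 of 8 with a median of -2.40. Gimap1 had 90.3, 92.9 and 88.2 FPKM in fresh libraries and 10.7, 11.0 and 11.6 in DL1 culture (-2.92 ± 0.040). Gimap5 was 11.7-fold lower (-2.84 ± 0.15) and Gimap6 7.55-fold lower (-2.76 ± 0.16), and Gimap9 differed by -0.48 ± 0.14. Summed over the 8 genes, fresh libraries had 188 to 218 FPKM, DL1 libraries 31.5 to 34.8 and libraries without DL1 19.5 to 20.1. All 3 members tested within culture rose with DL1, Gimap1 by 0.84 ± 0.13 (limma, adjusted p = 4.60e-04).

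Of 13 compared glucocorticoid-responsive genes (14 listed) 4 were higher and 5 lower. The metallothionein genes Mt1 (20.1, 26.9 and 16.7 FPKM in fresh and 552, 572 and 535 in DL1 libraries, 4.66 ± 0.19) and Mt2 (4.05 ± 0.29) and the decoy receptor gene Il1r2 (4.07 ± 0.17) were higher. Tsc22d3, which encodes the glucocorticoid-induced leucine zipper, was 13.9-fold lower (-3.66 ± 0.20) and the clock gene Per1 5.22-fold lower (-2.20 ± 0.11). Mt1 and Mt2 are also induced by metals. Of 22 compared immediate early genes (25 listed) 8 were higher and 2 lower (median 0.63), with Atf3 at 13.6 ± 1.31 against 0.185 ± 0.185 (3.63 ± 0.15) and Junb, an AP-1 subunit, 11.4-fold higher (3.24 ± 0.11). Of 16 compared p53 targets (20 listed) 3 were higher and 3 lower, at a median of 0.02 that was -0.07 under upper-quartile scaling. These shares, 18.75% each, are near the 14.8% higher and 17.8% lower of all genes. Besides Cdkn1a, Pmaip1, which encodes the death protein NOXA, was 50.7-fold higher (4.48 ± 0.079) and Bax 2.65-fold higher (1.38 ± 0.055), and Sesn1 was 2.63-fold lower (-1.35 ± 0.068). Of 11 compared heat shock genes (16 listed) 3 were higher and 0 lower. Hspa5, the chaperone of the endoplasmic reticulum, was 3.27-fold higher (1.74 ± 0.24), and Hsp90aa1 was called at 1.05 ± 0.022 but not under upper-quartile scaling (0.95). Of 19 compared chemokine receptors and integrins (21 listed) 8 were higher and 3 lower. Ccr1 had 0.514, 0.798 and 0.723 against 34.7, 37.9 and 36.9 (4.48 ± 0.083) and Itgb7, the integrin chain of mucosal homing, was 9.09-fold higher (3.07 ± 0.23).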

How the data were processed

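RNA was extracted with miRNeasy columns and made into TruSeq RNA libraries, per the labels' protocols. The authors deposited FPKM (fragments per transcript length, relative to the library's total) in separate tables for fresh and cultured libraries. TopHat 1.4.1, Cufflinks 1.3.0 and Cuffdiff are named, per the submitters' processing notes, together with the human build hg19. The mouse build, the annotation, the filters and read depth are not given in the sources used here. Depth within a group, read from the lowest values, ranged from 0.645 to 1 of the first fresh library and from 0.989 to 1.12 of the first DL1 library, and between tables it is unknown.

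Both tables hold 25629 rows in capitals, of which 19760 matched a current symbol of the RefSeq table of GRCm38.p6 and 2929 a synonym (88.5%). Rows that share a name (2) and 520 rows named like ribosomal or small RNAs, or taken to hold ribosomal RNA sequence, were left out. No column lacked a sample. Libraries were scaled by median ratios (factors of 0.940 to 1.06), with a pseudocount of 1, and genes with a mean of at least 1 over the 6 libraries were compared. Because the tables were normalized separately, no test was made across them. DL1 was tested within the 12 cultured libraries by limma (version 3.58.1, R 4.3.3; trend on the mean) on log2(FPKM + 1) of the deposited values (Benjamini-Hochberg, threshold 0.05). It called 1677 genes higher (13.9%) and 1479 lower (12.3%) of 12023, against 4525 with an unadjusted p under 0.05. The genes tested had a mean of at least 1 FPKM over the 12 cultured libraries, which high DL1 libraries alone can bring about. Methods were tested on simulated data. Length and GC are of the longest GENCODE M21 transcript, found for 90.0% of compared genes.

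Named genes are the 10 called higher and 10 lower by the most, in each of 37 lists up to 5 called members and up to 2 with little difference, and a fixed set of stem cell, Notch and lineage genes. Comparison, lists and rule were chosen with earlier results of these data known. Alternatives were other scalings, pseudocounts, filters and folds, kept rows, ranks, a replicate block and leaving out each library. Some genes that this rule names are not reported here.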

Additional observations from a re-analysis of the deposited data

How the results depend on the processing

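The count of 4138 genes called between DL1 culture and fresh controls moved with the pseudocount, the filter and the size asked for. With a pseudocount of 5 it was 2170 (1159 higher, 1011 lower). With a mean of at least 5 FPKM the lower genes numbered 1302. At 4-fold it was 978 (379 and 599), and by lack of overlap alone 10815 (5399 and 5416). In irradiated cells a pseudocount of 5 gave 2137 (1146 and 991) and the stricter mean 1283 lower genes. For the culture without DL1 these were 2249 (1227 and 1022) and 1332. The share of higher genes among those called was 45.5%, and 53.4% with a pseudocount of 5, 55.1% with the stricter mean and 38.01% under upper-quartile scaling, which moved the median of all genes to -0.10. Leaving out each library in turn gave 3988 to 4213 called genes (1781 to 1919 higher, 2207 to 2299 lower), in irradiated cells 3938 to 4158 (1832 to 1911 and 2104 to 2296), and without DL1 4084 to 4308 (1876 to 1956 and 2208 to 2362). Within culture limma then gave 2222 to 2912 genes (1052 to 1587 higher and 1164 to 1344 lower with DL1), the fewest higher without DL1 replicate 1 (1052), control culture replicate 1 (1076) and DL1 replicate 3 (1116). Groups left with 2 libraries share the spread estimated over all cultures. Median-ratio scaling of the cultured table changed the split in limma from 1677 higher and 1479 lower to 1269 and 1711. With the replicate block 1713 were higher and 1479 lower. Deviations of same-numbered libraries had r of -0.058, -0.030 and 0.104, and those of unlike numbers r between -0.106 and 0.153. With 3 libraries a group, this cannot tell whether equal numbers share a mouse or a day.

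Of 191 named genes that were called, 138 were also called at 4-fold and 53 were not. Changes of the fold aside, 164 kept the call under each alternative that kept them in the comparison, 27 lost it under at least 1, and 0 reversed. Of 37 list medians 4 changed sign. The p53 target median of 0.02 became -0.07 under upper-quartile scaling, -0.05 with a pseudocount of 5, -0.32 without the filter, -0.38 with the stricter mean, and -0.02, -0.08 and -0.08 without DL1 replicate 2 and fresh replicates 2 and 3. With the stricter mean the stromal and endothelial median went from -0.86 to 0.34 and the glucocorticoid-responsive one from -0.58 to 0.39. The mast cell and basophil median went from 0.31 to -0.01 without DL1 replicate 2. Of 518 list medians under alternatives 66 moved by at least 0.25. The genes lost with a pseudocount of 5 include Hes1, Cdkn1c, Il11ra1, Rag2, Cd79a, Igf2r, Gata3, Clec9a, Cd14, Fcgr1 and Gzma, all of low level, where a larger pseudocount shrinks a difference by construction. FPKM carry no read counts, so differences of genes under about 1 FPKM have no counting interval.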

Other observations

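Some rows outside the comparison differed between the tables by far more than genes did. The 18S ribosomal RNA row was listed at 0, 39327 and 0 FPKM in fresh controls and at 1638, 1312 and 1767 in DL1 culture. The nuclear long noncoding RNA Malat1 had 1146, 828 and 919 FPKM in fresh libraries and 28.8, 25.7 and 29.3 in DL1 culture. The RNA of RNase MRP had 21.2, 16.2 and 14.8 against 1.28, 0.432 and 0.487, and the RNA of RNase P had 50.01, 40.8 and 40.1 against 6.06, 8.62 and 9.58. These values are as deposited, without scaling.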
